A study of Homo sapiens with 8 samples.

Results

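The 53 genes described here encode core proteins of the spliceosome. They were taken as a list of gene names by protein function. The rule that picks them uses no measured level, although the list was drawn up with earlier results of these data known. They comprise the Sm ring, the proteins specific to the U1, U2, U5 and U4/U6.U5 particles, the LSm ring of U6, the PRPF19 complex with its associated proteins, and factors of the catalytic steps. All 53 were among the 60624 genes listed in the count tables, and all 53 were among the 18661 genes with enough counts to be tested. The RNA came from A549, a human lung adenocarcinoma cell line. It was sequenced from cells left untreated, cells given indisulam, cells given SPHINX31 and cells given both compounds (the combination), with 2 libraries in each group and 8 in all. Exposure lasted 24 h in the published protocol, at 0.5 µM for indisulam and 5 µM for SPHINX31, alone or together. The treatment note attached to every sample names 2 µM indisulam for 18 h instead. In the published protocol that dose and time belong to an experiment in Panc10.05, a pancreatic cancer line, and not to A549. The 2 libraries of a group are technical replicates of 1 cell line, so every SD, standard error and p-value below measures the spread between such libraries and not between independent cultures.

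Indisulam is an aryl sulfonamide that binds the ubiquitin ligase substrate receptor DCAF15 and brings it the splicing factor RBM39, which is then degraded. SPHINX31 inhibits SRPK1, a kinase that phosphorylates serine and arginine rich splicing factors. The study asked whether blocking both changes RNA processing more than either compound alone. The genes counted here encode the machine that carries out splicing. Each spliceosome is built from small nuclear RNAs wrapped in proteins (snRNPs). U1 recognises the 5′ splice site and U2 the branch site, and the preassembled U4/U6.U5 tri-snRNP then joins. The PRPF19 complex stabilises the active site that forms, and a few step factors guide the cutting and joining reactions. These proteins are needed by nearly every dividing cell, and their mRNAs are present in all tissues.

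The gene counts per library summed to between 51727369 and 63186989, and between 83.0% and 86.0% of the reads recorded by the counter fell on genes. RBM39 mRNA was 154 and 157 CPM (counts scaled to a common library size, with TMM correction for library composition) in untreated cells, 361 and 360 with indisulam, 166 and 184 with SPHINX31 and 373 and 391 with the combination. Its mRNA was higher in every library with indisulam (log2 fold change 1.22 ± 0.06 SE with indisulam alone, edgeR adjusted p = 5.41e-09), and the amount of RBM39 protein is not measured by these data. SRPK1 mRNA was 128 and 130 CPM in untreated cells, 104 and 100.8 with indisulam, 118 and 131 with SPHINX31 and 110 and 109 with the combination, and it fell with indisulam (log2 fold change -0.33 ± 0.06 SE, edgeR adjusted p = 0.000342). All 10 markers of A549 or epithelial cells were at 72.2 CPM or more in every library, and of 12 markers of blood, stromal, endothelial, alveolar or liver cells none was above 4.58 CPM, with CD3E at 0 throughout. Of the 10, none rose against untreated cells, and 4 fell with indisulam, 4 with SPHINX31 and 7 with the combination, where 23.5%, 3.67% and 26.3% of all tested genes fell. Their summed level was 28887 to 28906 CPM in untreated libraries, 25680 to 26352 with indisulam, 28025 to 28034 with SPHINX31 and 25249 to 25533 with the combination. Their part in the results below was not tested. The summed level of those 12 markers was 6.41 to 6.79 CPM in untreated libraries, 6.33 to 7.17 with indisulam, 6.42 to 7.25 with SPHINX31 and 6.64 to 6.66 with the combination.

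The promoters of the core spliceosome genes were read from RefSeq (GRCh38.p14), which held an entry for 48 of the 53. In a window of 300 bases, 250 before and 50 from the transcription start, the letters CCGGAAG of an ETS-type element were found on either strand in 23 of the 48 promoters (47.9%), against 14.2% of 15842 protein-coding promoters. Those 15842 were not limited to genes expressed in these cells, so whether other expressed genes have the element as often was not tested. The element was in the promoters of 15 of the 27 matched genes that rose with indisulam and of 8 of the other 21. Letters of an SP1-type element (GGGCGG) were in 60.4% of these promoters and 58.5% of all, and those of an NFY-type element (CCAAT) in 41.7% and 36.4%. These are matches of letters and show nothing about binding. A further 5 patterns were searched. The YY1-type letters AAGATGGC and the TATA letters TATAAA were each in 3 of the 48 (6.25%), against 3.91% and 9.63% of all promoters. A palindromic NRF1-type pattern and E-box letters (CACGTG) were each in 2 (4.17%, against 1.75% and 8.88%), and CRE letters (TGACGTCA) in 1 (2.08%, against 2.59%).

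The 250 bases before the start are shown for the 2 matched genes with the largest increase with indisulam and for the 3 that fell, to set genes that rose beside genes that fell (PRPF39 and PRPF3, which rose more, were not matched). Each runs 5′ to 3′ in the direction of the gene, and capitals mark any of the 8 patterns that ends before the start.
PRPF38B, chr1:108692060-108692309, plus strand: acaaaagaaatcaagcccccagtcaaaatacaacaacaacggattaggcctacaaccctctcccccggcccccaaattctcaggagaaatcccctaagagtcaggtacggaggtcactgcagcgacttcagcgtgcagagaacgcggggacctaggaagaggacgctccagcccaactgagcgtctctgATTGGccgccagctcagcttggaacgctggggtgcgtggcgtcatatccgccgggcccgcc
SNRNP27, chr2:69893706-69893955, plus strand: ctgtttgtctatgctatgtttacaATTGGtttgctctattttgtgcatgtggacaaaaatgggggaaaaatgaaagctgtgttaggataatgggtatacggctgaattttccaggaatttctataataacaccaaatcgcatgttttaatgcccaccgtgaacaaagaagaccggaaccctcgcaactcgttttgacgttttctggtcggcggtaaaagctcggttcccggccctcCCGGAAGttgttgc
BCAS2, chr1:114581616-114581865, minus strand: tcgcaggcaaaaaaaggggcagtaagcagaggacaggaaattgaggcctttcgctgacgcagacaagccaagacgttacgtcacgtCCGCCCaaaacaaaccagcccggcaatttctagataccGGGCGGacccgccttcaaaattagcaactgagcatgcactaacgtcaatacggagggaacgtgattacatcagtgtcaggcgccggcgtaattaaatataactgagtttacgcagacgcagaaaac
EFTUD2, chr17:44899446-44899695, minus strand: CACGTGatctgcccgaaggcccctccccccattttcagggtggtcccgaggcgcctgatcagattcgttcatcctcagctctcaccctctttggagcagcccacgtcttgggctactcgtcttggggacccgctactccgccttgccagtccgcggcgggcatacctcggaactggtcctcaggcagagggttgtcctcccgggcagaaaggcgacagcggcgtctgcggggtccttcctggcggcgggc
PLRG1, chr4:154550401-154550650, minus strand: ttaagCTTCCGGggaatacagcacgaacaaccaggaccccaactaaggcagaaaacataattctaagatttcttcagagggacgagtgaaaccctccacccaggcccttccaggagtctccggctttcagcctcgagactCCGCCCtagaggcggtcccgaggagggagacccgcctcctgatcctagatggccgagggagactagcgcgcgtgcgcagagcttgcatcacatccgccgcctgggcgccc
Of this set, SNRNP27 has CCGGAAG close to its start, and PLRG1, which fell, has the same letters on the other strand (CTTCCGG) near the far end. PLRG1 also has a second match 4 bases past its start, inside the window searched but outside the bases shown. Closeness to the start therefore did not set the gene that rose apart from PLRG1. The promoters of BCAS2 and EFTUD2 have none in the window. The element was therefore present, and absent, among genes that moved in either direction.

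With indisulam, the mRNAs of core spliceosome genes were mostly higher than in untreated cells. A gene is called changed where edgeR's quasi-likelihood test gave a Benjamini-Hochberg adjusted p under 0.05 over all 18661 tested genes. By this rule 30 of the 53 rose and 3 fell, beside 20.1% of all tested genes that rose and 23.5% that fell. The median log2 fold change of the 53 was 0.19, and that of all tested genes was -0.00. Most changes were small, and 7 of the 53 had an absolute log2 fold change of 0.5 or more. In RNA from a whole culture, a change in every cell and a larger change in some of them cannot be told apart. Summed over the 53, the level was 4764 and 4876 CPM in untreated cells and 5640 and 5583 CPM with indisulam, which is 116% of the untreated mean. Without any 1 of the untreated or indisulam libraries, fewer of the 53, and fewer of all tested genes, were called higher. The median log2 fold change of the 53 then ran from 0.18 to 0.20. Of the 30 calls of an increase, 19 were kept under all 18 other settings, each leave-one-out fit included (the minimum fold change, which removes small effects by construction, is not among them).

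**Figure D1:**
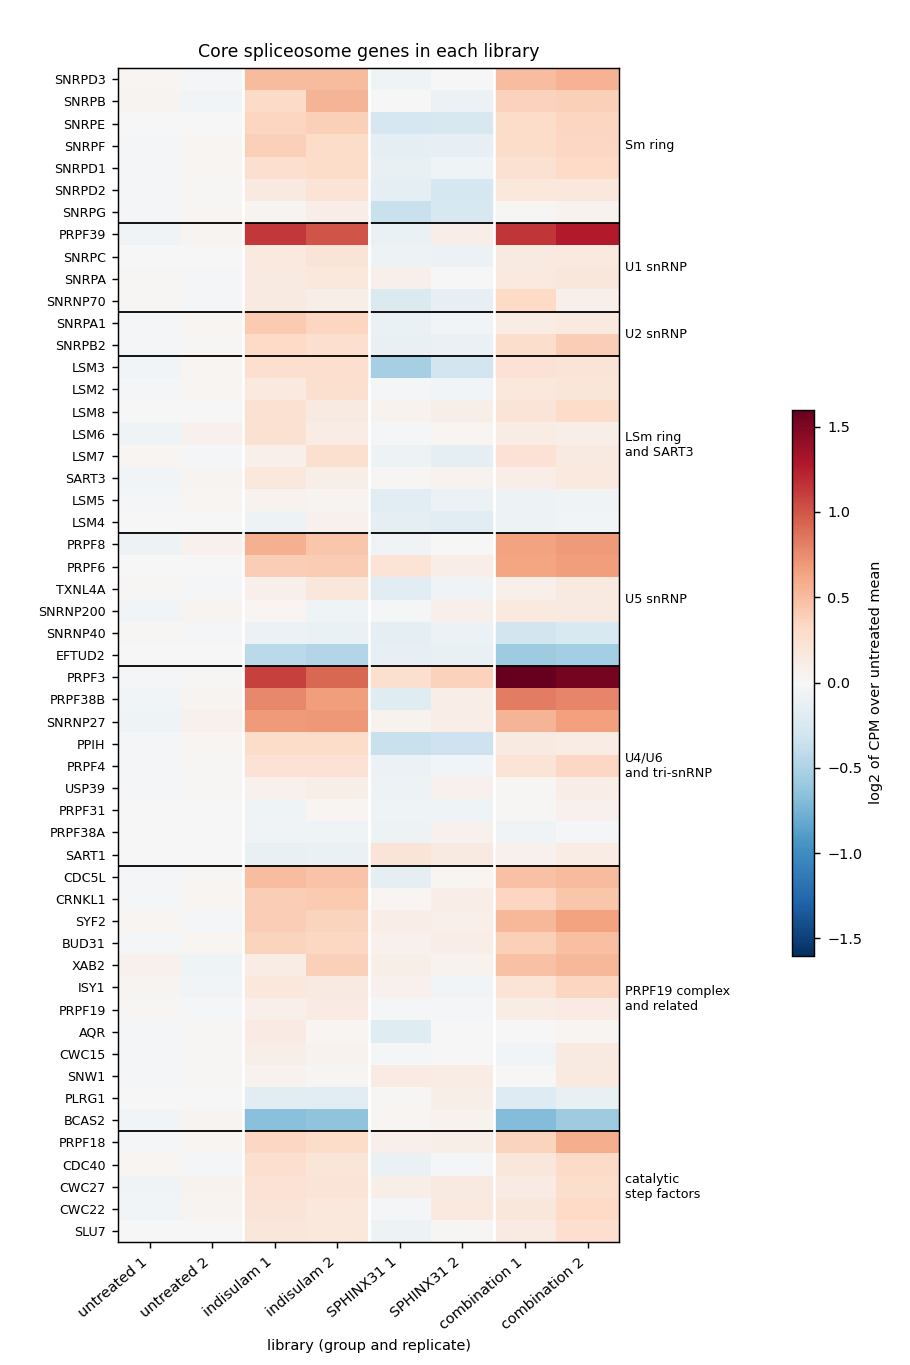
Level of each of the 53 core spliceosome genes in each of the 8 libraries, as log2 of CPM over the mean of the untreated libraries, with genes in rows by role and libraries in columns. PRPF39 and PRPF3 stand out in red in the indisulam and combination libraries, BCAS2 and EFTUD2 in blue in the same libraries, and the SPHINX31 columns are pale with LSM3 the lowest.

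Among the Sm proteins, which form the ring around U1, U2, U4 and U5 snRNA, 6 of 7 rose with indisulam and none fell. The largest increase was in SNRPD3, which was 46.4 and 44.2 CPM in untreated libraries, 64.3 and 64.4 with indisulam, 43.1 and 45.1 with SPHINX31 and 63.9 and 66.8 with the combination. The indisulam and combination libraries all lay above the other 4. With indisulam the log2 fold change of SNRPD3 was 0.51 ± 0.06 (SE), a 1.42-fold increase (edgeR adjusted p = 8.19e-06). SNRPB, whose product makes the SmB and SmB′ proteins, had a log2 fold change of 0.43, and its close relative SNRPN was at 2.14 and 2.45 CPM in untreated cells and was not called. SNRPG was the exception, at 85.9 and 90.1 CPM in untreated cells and 90.4 and 94.9 with indisulam. The difference in SNRPG was 0.07 ± 0.05 on the log2 scale (95% interval -0.08 to 0.23, edgeR adjusted p = 0.296). Summed over the ring, the level was 811 and 817 CPM in untreated cells and 979 and 1032 with indisulam.

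Of the 4 proteins of the U1 particle, 3 rose. PRPF39, a U1-associated protein that takes part in choosing among 5′ splice sites, had the largest log2 fold change of all 53 with indisulam. The gene lies at chr14:45084107-45116282 (GRCh38, GENCODE annotation), and its canonical transcript has 14 exons. Its level was 27.5 and 29.5 CPM in untreated libraries, 62.2 and 57.4 with indisulam, 26.6 and 30.6 with SPHINX31 and 63.0 and 68.9 with the combination. Every library that received indisulam was far above every one that did not. The log2 fold change with indisulam was 1.07 ± 0.08 (SE), or 2.10-fold (edgeR adjusted p = 1.97e-07). Exons of PRPF39 overlap those of FKBP3 on the opposite strand, a gene with a median of 6854 counts per library against 2360 for PRPF39. FKBP3 had a log2 fold change of 0.02 with indisulam (edgeR adjusted p = 0.750), so the increase in PRPF39 was not seen in its neighbour. With the combination FKBP3 was lower, by a log2 fold change of -0.18 (edgeR adjusted p = 0.00607). Whether PRPF39 and FKBP3 share reads was not tested. The core U1 proteins SNRPC and SNRPA rose by much less, with log2 fold changes of 0.18 and 0.16. Neither of these calls held in every leave-one-out fit. SNRNP70, the protein that binds the first stem of U1 RNA, was 179 and 174 CPM in untreated cells and 194 and 189 with indisulam, a log2 difference of 0.12 that was not called (edgeR adjusted p = 0.186) but was called with only the compared groups in the fit (0.0358) and with the GC correction (0.0261).

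Both U2-specific proteins rose. SNRPA1, which carries leucine-rich repeats and pairs with SNRPB2 on U2 RNA, was 78.0 and 81.1 CPM in untreated cells, 106 and 101.3 with indisulam, 73.7 and 77.4 with SPHINX31 and 86.5 and 88.6 with the combination. The indisulam libraries were the highest, and the combination libraries lay between them and the rest. SNRPA1 had a log2 fold change of 0.38 ± 0.05 (SE) with indisulam (edgeR adjusted p = 6.23e-05), and SNRPB2 one of 0.29 ± 0.05 (edgeR adjusted p = 0.000659). Exons of SNRPA1 overlap PCSK6 on the same strand, where reads of either gene can be left uncounted or misassigned. PCSK6 had a log2 fold change of -0.14 with indisulam, which was not called.

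In the LSm ring, which holds the 3′ end of U6 RNA, and SART3, which helps U4 and U6 to pair again after splicing, 3 of 8 genes rose and none fell. LSM3 was highest, at 62.5 and 65.8 CPM in untreated cells and 77.4 and 77.0 with indisulam, a log2 fold change of 0.27 ± 0.07 (SE, edgeR adjusted p = 0.00606). That call was lost when the first untreated library was left out (log2 fold change 0.23, edgeR adjusted p = 0.0628). LSM2 and LSM8 had log2 fold changes of 0.20 and 0.19, and neither call held in every leave-one-out fit. LSM4 was lowest, at 146 and 147 CPM in untreated cells and 138 and 153 with indisulam. Its libraries overlapped, and the sign of its log2 fold change of -0.01 turned with the scaling used (0.01 with DESeq2-type size factors).

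**Figure D2:**
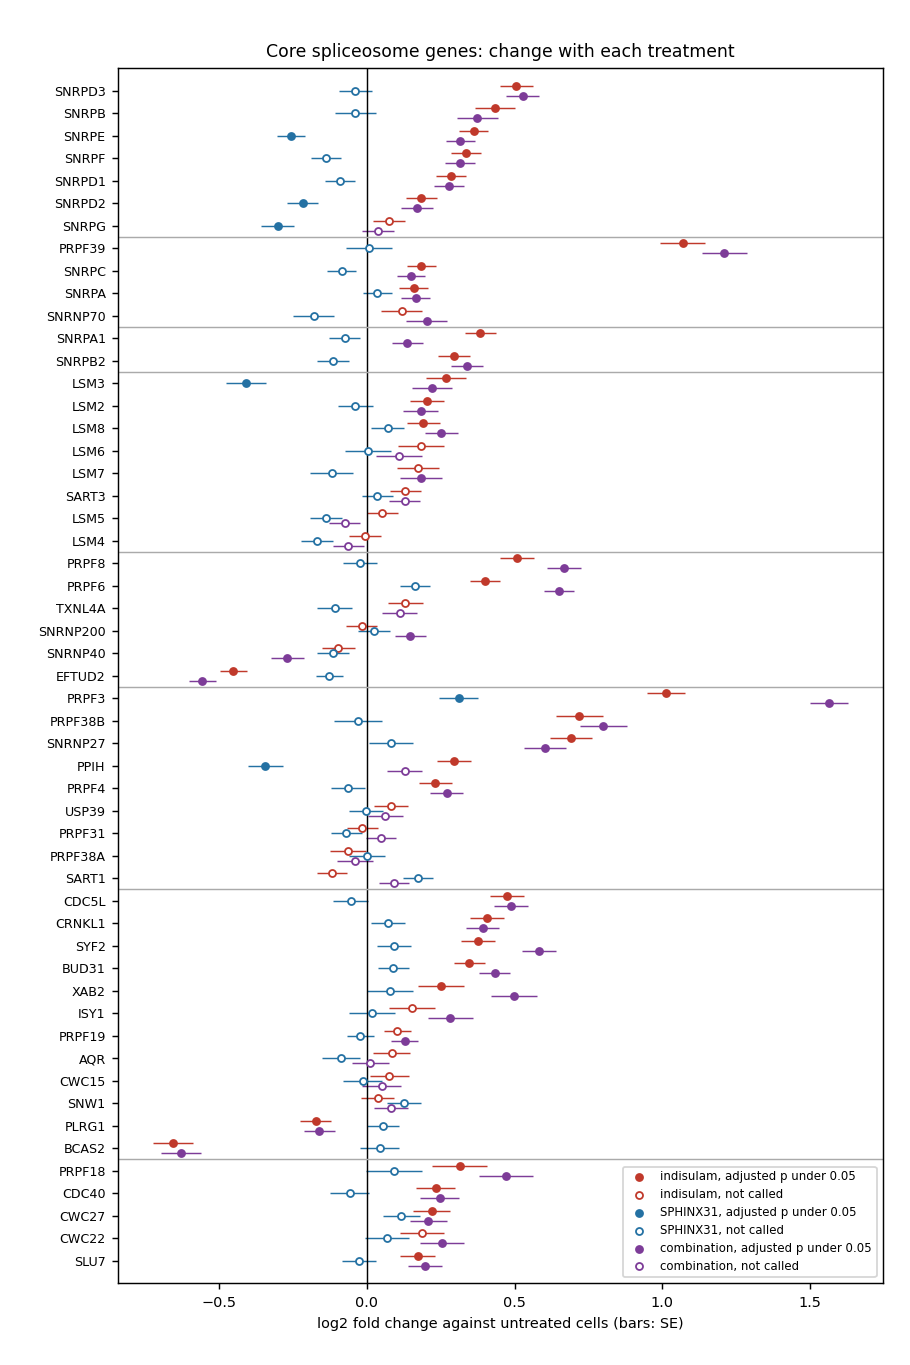
Log2 fold change against untreated cells (horizontal axis, bars are SE) of each of the 53 genes, in rows by role, for indisulam (red), SPHINX31 (blue) and the combination (purple), filled where the edgeR adjusted p was under 0.05. Indisulam and combination points lie mostly right of 0 with BCAS2 and EFTUD2 to the left, and SPHINX31 points gather around 0.

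Of the 6 genes of the U5 particle, 2 rose and 1 fell (33.3% and 16.7%), beside 20.1% and 23.5% of all tested genes. PRPF8, the large scaffold that holds the catalytic RNA core, was 558 and 618 CPM in untreated cells, 870 and 802 with indisulam, 564 and 592 with SPHINX31 and 922 and 945 with the combination. It rose with indisulam by a log2 fold change of 0.51 ± 0.06 (SE), or 1.42-fold (edgeR adjusted p = 1.26e-05). PRPF6, which bridges U5 and U4/U6, rose as well, with a log2 fold change of 0.40. EFTUD2, the GTPase that sits beside PRPF8 in the same particle, moved the other way. It was 207 and 207 CPM in untreated cells, 153 and 150 with indisulam, 189 and 190 with SPHINX31 and 139 and 142 with the combination. All 4 libraries with indisulam were below all 4 without. EFTUD2 (chr17:44849948-44899445, 28 exons) had a log2 fold change of -0.45 ± 0.05 (SE) with indisulam, 1.37-fold lower (edgeR adjusted p = 4.33e-06). The helicase SNRNP200 was 340 and 358 CPM in untreated cells and 356 and 334 with indisulam, so its libraries overlapped.

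Of the 9 proteins of U4/U6 and the tri-snRNP, 5 rose and none fell. PRPF3, a U4/U6 protein (chr1:150321479-150353233, 16 exons), was 41.0 and 41.8 CPM in untreated cells, 88.6 and 78.5 with indisulam, 49.4 and 53.3 with SPHINX31 and 125 and 120 with the combination. The 4 groups did not overlap, and they rose in the order untreated, SPHINX31, indisulam, combination. With indisulam the log2 fold change of PRPF3 was 1.01 ± 0.06 (SE), or 2.02-fold (edgeR adjusted p = 7.44e-08). PRPF4, its direct partner on U4/U6, changed much less, with a log2 fold change of 0.23. PRPF38B was 42.4 and 44.96 CPM in untreated cells, 74.1 and 69.7 with indisulam, 38.3 and 47.2 with SPHINX31 and 76.9 and 75.2 with the combination. Its log2 fold change with indisulam was 0.72 ± 0.08 (SE, edgeR adjusted p = 9.62e-06). The related gene PRPF38A, a component of the spliceosome before activation, was not called, at 40.7 and 41.0 CPM in untreated cells and 39.3 and 38.9 with indisulam.

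SNRNP27, a small protein of the tri-snRNP rich in serine and arginine, was 14.5 and 16.0 CPM in untreated cells, 24.6 and 24.7 with indisulam, 15.8 and 16.5 with SPHINX31 and 22.3 and 24.1 with the combination. It rose with indisulam by a log2 fold change of 0.69 ± 0.07 (SE, edgeR adjusted p = 5.72e-06). Its exons overlap those of MXD1 on the same strand, and MXD1 had a log2 fold change of 0.56 with indisulam (edgeR adjusted p = 0.000876) at a median of 274.5 counts against 1112 for SNRNP27. How far the 2 genes share reads was not tested. PPIH, a peptidyl-prolyl isomerase bound to PRPF4, rose by a log2 fold change of 0.29. SART1, which helps to recruit the tri-snRNP, was lowest of the 9 at 71.3 and 70.2 CPM in untreated cells and 64.9 and 65.5 with indisulam, a log2 difference of -0.12 that was not called (edgeR adjusted p = 0.0777), though it was with the GC correction (0.0433).

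Of the 12 genes of the PRPF19 complex and its associated proteins, 5 rose and 2 fell (41.7% and 16.7%), beside 20.1% and 23.5% of all tested genes. CDC5L, a DNA-binding domain protein at the core of the complex, was 71.4 and 73.1 CPM in untreated cells, 101.5 and 99.4 with indisulam, 65.5 and 73.7 with SPHINX31 and 100 and 103 with the combination. Its log2 fold change with indisulam was 0.47 ± 0.06 (SE, edgeR adjusted p = 2.52e-05). CRNKL1, SYF2, BUD31 and XAB2 rose too, with log2 fold changes of 0.41, 0.38, 0.35 and 0.25. The call of XAB2, unlike those of the others, did not hold in every leave-one-out fit. BCAS2, a small core subunit that binds CDC5L and PLRG1, fell most of all 53. It was 27.2 and 28.9 CPM in untreated cells, 17.7 and 18.0 with indisulam, 28.6 and 29.2 with SPHINX31 and 17.3 and 19.0 with the combination. All libraries with indisulam were below all without. BCAS2 (chr1:114567557-114581629, 7 exons) had a log2 fold change of -0.66 ± 0.07 (SE) with indisulam, 1.58-fold lower (edgeR adjusted p = 5.32e-06).

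PLRG1, a WD-repeat subunit of the same core, was 85.5 and 86.7 CPM in untreated cells and 76.6 and 76.1 with indisulam, a log2 fold change of -0.17 ± 0.05 (SE, edgeR adjusted p = 0.0180). This call was lost when any 1 of the 4 libraries compared was left out (edgeR adjusted p = 0.0643 and 0.0908 without the first and the second indisulam library, and 0.0707 and 0.104 without the first and the second untreated library). PRPF19, the ubiquitin ligase that gives the complex its name, was 167 and 163 CPM in untreated cells and 174 and 180 with indisulam, and was not called (edgeR adjusted p = 0.0856). Within this 1 assembly, then, core subunits with called changes lay on both sides of 0.

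Of the 5 catalytic step factors, 4 rose and none fell. PRPF18, which acts in the second step, was the least abundant of these genes, at 7.38 and 7.71 CPM in untreated cells and 9.51 and 9.24 with indisulam. Its log2 fold change was 0.31 ± 0.09 (SE, edgeR adjusted p = 0.0144), and the call was lost without the first indisulam library (edgeR adjusted p = 0.0682) or the first untreated library (edgeR adjusted p = 0.0970). SLU7, which helps to select the 3′ splice site, was 69.6 and 69.1 CPM in untreated cells and 78.5 and 77.7 with indisulam. It had the smallest log2 fold change of the 5, at 0.17 ± 0.06 (SE, edgeR adjusted p = 0.0296), and leaving out any 1 of the 4 libraries compared ended the call (edgeR adjusted p = 0.0996 and 0.0586 without the first and the second indisulam library, and 0.108 and 0.126 without the first and the second untreated library). CDC40 and CWC27 rose by log2 fold changes of 0.23 and 0.22, and neither call held in every leave-one-out fit.

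**Figure D3:**
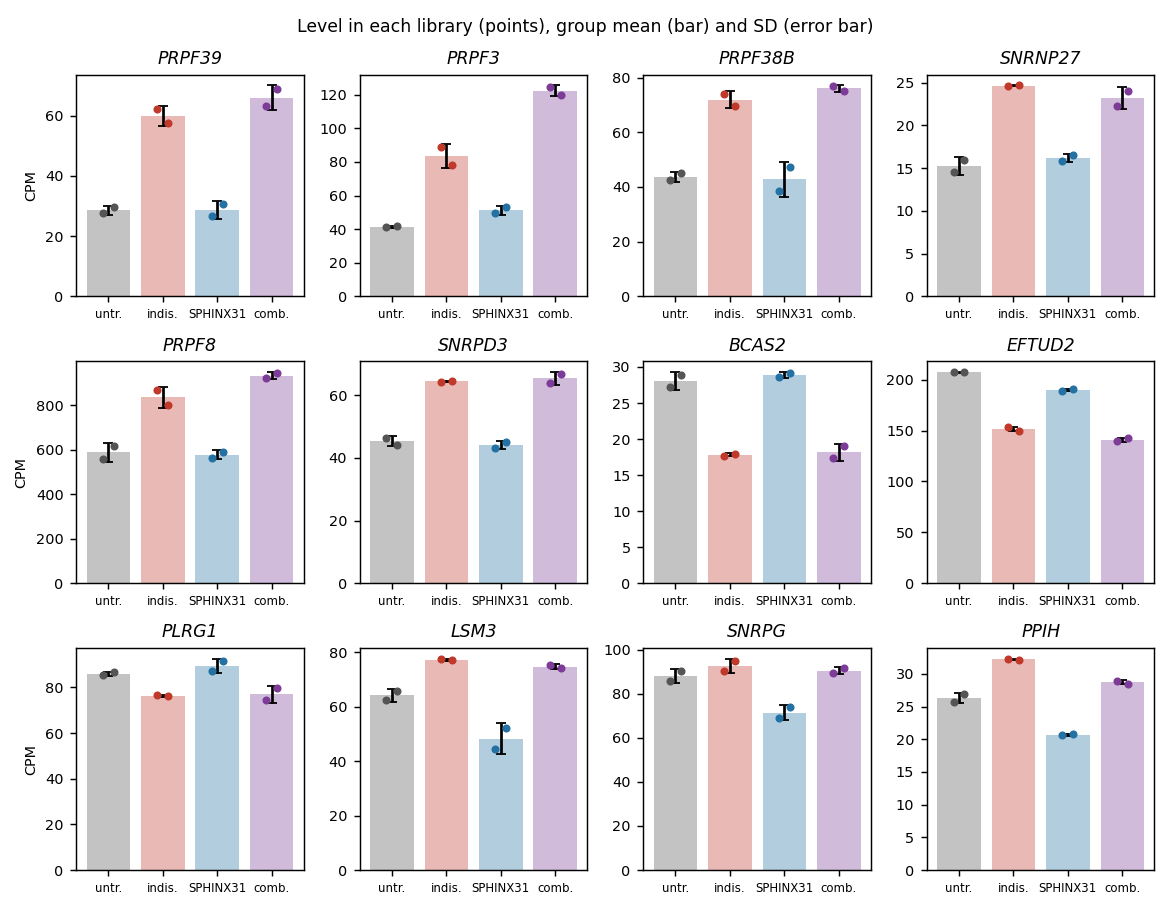
CPM of 12 core spliceosome genes in each library (points), with the group mean (bar) and SD of 2 libraries (error bar), for untreated, indisulam, SPHINX31 and combination cells. PRPF3 rises stepwise to 125 and 120 CPM with the combination, BCAS2 and EFTUD2 are low in both groups with indisulam, and LSM3, SNRPG and PPIH are lowest with SPHINX31.

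SPHINX31 alone left the core spliceosome genes close to their untreated levels. With it, 1 of the 53 rose and 5 fell, beside 4.94% of all tested genes that rose and 3.67% that fell. The median log2 fold change was -0.03 for the 53 and -0.01 for all tested genes, and no member reached an absolute log2 fold change of 0.5. The gene that rose was PRPF3 (levels above), with a log2 fold change of 0.31 ± 0.07 (SE, edgeR adjusted p = 0.0103). Its call was lost without the first or the second untreated library (edgeR adjusted p = 0.0964 and 0.0662) or without the second SPHINX31 library (edgeR adjusted p = 0.0621).

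The genes that fell with SPHINX31 were 3 of the 7 Sm proteins, 1 LSm protein and PPIH. LSM3 fell most, to 44.3 and 52.2 CPM from 62.5 and 65.8, a log2 fold change of -0.41 ± 0.07 (SE), 1.33-fold lower (edgeR adjusted p = 0.00281). It was the only one of the 5 whose call held in every leave-one-out fit. PPIH fell to 20.6 and 20.8 CPM from 25.7 and 26.9, a log2 fold change of -0.34 ± 0.06 (SE, edgeR adjusted p = 0.00335). SNRPG fell to 68.9 and 73.8 CPM from 85.9 and 90.1 (log2 fold change -0.30 ± 0.06 SE, edgeR adjusted p = 0.00443). For SNRPE the levels were 76.9 and 77.6 CPM against 91.8 and 92.8 (log2 fold change -0.26 ± 0.05 SE, edgeR adjusted p = 0.00544). SNRPD2, the fifth, had a log2 fold change of -0.22 ± 0.05 (SE, edgeR adjusted p = 0.0229). All 7 Sm genes had a log2 fold change below 0, between -0.30 and -0.04, and the ring summed to 740 and 725 CPM, 90.0% of its untreated level.

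These decreases rest on few libraries, and without either untreated library fewer of all tested genes were called lower as well. Without the first untreated library 3 of the 5 were still called (LSM3, PPIH and SNRPG), and without the second only LSM3 (edgeR adjusted p = 0.0552 for PPIH, 0.0676 for SNRPG, 0.0666 for SNRPE and 0.173 for SNRPD2). SNRPD2 was also lost without the second SPHINX31 library (edgeR adjusted p = 0.108).

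Across the 53 genes, the response to SPHINX31 varied with exon number. The Spearman correlation of the log2 fold change with the number of exons in the canonical transcript was 0.43 over the 53, and -0.07 over 14010 tested protein-coding genes. Genes of few exons, which include the Sm and LSm genes, mostly had negative values. SART1 with 20 exons, PRPF6 with 21 and PRPF3 with 16 had the most positive ones. There were exceptions, since LSM6 and LSM8, with 4 exons each, were at 0.00 and 0.07, and PPIH with 10 exons was second lowest. SART3, also above 0, has 19 exons. Exon number goes with role here (all 7 Sm genes were below 0), and the parts of the 2 were not separated. With indisulam the same correlation was -0.11, against -0.15 over all protein-coding genes. For combination against indisulam it was 0.42, against -0.12. These are descriptions over genes, which share libraries and are not independent. Exon number goes with transcript length in these genes, and the correlation of the SPHINX31 response with length was 0.25.

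With the combination, 35 of the 53 rose against untreated cells and 4 fell, beside 23.8% of all tested genes that rose and 26.3% that fell. The median log2 fold change was 0.20, against 0.00 for all tested genes, and the summed level was 5748 and 5887 CPM, 121% of the untreated mean. By role, the combination raised 6 of 7 Sm genes, 4 of 4 U1 genes, 2 of 2 U2 genes, 4 of 8 in the LSm group, 3 of 6 U5 genes, 4 of 9 in the tri-snRNP group, 7 of 12 in the PRPF19 group and 5 of 5 step factors. This comparison and the others against untreated cells share the untreated libraries. PRPF3 led, with a log2 fold change of 1.56 ± 0.06 (SE), or 2.96-fold (edgeR adjusted p = 1.12e-09). PRPF39 followed with 1.21 ± 0.08 (SE, edgeR adjusted p = 3.87e-08), then PRPF38B with 0.80 ± 0.08, PRPF8 with 0.67 ± 0.06 and PRPF6 with 0.65 ± 0.05 (SE).

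The genes that fell with the combination were BCAS2, EFTUD2, SNRNP40 and PLRG1. BCAS2 had a log2 fold change of -0.63 ± 0.07 and EFTUD2 one of -0.56 ± 0.05 (SE). SNRNP40, a WD-repeat protein of U5, was 42.4 and 41.5 CPM in untreated cells, 39.4 and 39.1 with indisulam, 38.1 and 39.4 with SPHINX31 and 34.3 and 35.3 with the combination. Only the combination passed the test for SNRNP40 (log2 fold change -0.27 ± 0.05 SE, edgeR adjusted p = 0.00114), and its difference from indisulam alone was -0.17 with an edgeR adjusted p of 0.0788. PLRG1 had a log2 fold change of -0.16 ± 0.05 (SE, edgeR adjusted p = 0.0221), which was lost without either untreated library (edgeR adjusted p = 0.0784 and 0.118) or the first combination library (0.199), and with library totals alone (0.0968). Fewer of the 53, and fewer of all tested genes, were called higher without either untreated library or without the second combination library. The median log2 fold change of the 53 was 0.18 without the first untreated library, 0.19 without the second and 0.17 without the second combination library. Of the 35, 20 kept their call under all 17 other settings.

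**Figure D4:**
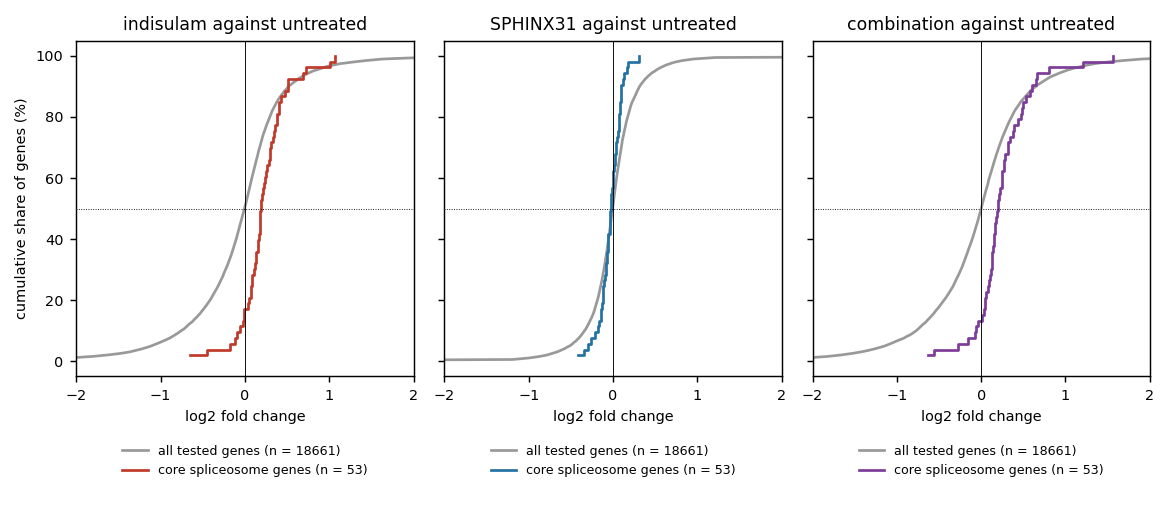
Cumulative share of genes (vertical axis, %) by log2 fold change against untreated cells (horizontal axis) for the 53 core spliceosome genes (coloured) and all 18661 tested genes (grey), with indisulam, SPHINX31 and the combination. The coloured curve crosses 50% at 0.19 with indisulam and 0.20 with the combination, right of the grey one, and near 0 with SPHINX31.

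Adding SPHINX31 to indisulam changed few of these genes. Between the combination and indisulam alone, 4 of the 53 were higher and 1 was lower, beside 3.17% of all tested genes that were higher and 4.32% that were lower. PRPF3 was higher by a log2 fold change of 0.55 ± 0.06 (SE), or 1.46-fold (edgeR adjusted p = 0.000252), and it was the only one of the 5 whose call held under every other setting. PRPF6 was 177 and 183 CPM with the combination and 151 and 151 with indisulam, a log2 fold change of 0.25 ± 0.05 (SE, edgeR adjusted p = 0.00926). SART1 was 73.9 and 76.9 CPM against 64.9 and 65.5 (log2 fold change 0.21 ± 0.05 SE, edgeR adjusted p = 0.0246). SYF2, a PRPF19-associated protein, was 61.9 and 66.9 CPM against 56.6 and 54.9 (log2 fold change 0.21 ± 0.06 SE, edgeR adjusted p = 0.0417). SNRPA1 was the gene that was lower, with a log2 fold change of -0.25 ± 0.05 (SE, edgeR adjusted p = 0.0125).

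Single libraries decided most of these calls. Fewer of the 53, and fewer of all tested genes, were called higher without any 1 of the untreated, indisulam or combination libraries. The median log2 fold change of the 53 then ran from -0.03 to 0.04, against 0.01 in the full fit. PRPF6 was lost without the first indisulam library (edgeR adjusted p = 0.0557) or the second combination library (0.0906). SART1 and SYF2 were each lost without any 1 of the untreated, indisulam or combination libraries, with edgeR adjusted p from 0.0511 to 0.162 for SART1 and from 0.0503 to 0.258 for SYF2. SYF2 was also lost with a replicate block (edgeR adjusted p = 0.0651), with RLE size factors (0.0506) and with only the compared groups in the fit (0.0581). SNRPA1 was lost without the first indisulam library (edgeR adjusted p = 0.111), the first combination library (0.0955) or the second (0.0669). Its same-strand neighbour PCSK6 differed by -0.33 (log2) from untreated cells with the combination.

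Against SPHINX31 alone, 35 of the 53 were higher with the combination and 4 were lower, beside 23.4% of all tested genes that were higher and 26.5% that were lower. All 7 Sm genes were among the 35, with log2 fold changes between 0.34 and 0.57. LSM3 had a log2 fold change of 0.63 in this comparison and PPIH one of 0.47. BCAS2, EFTUD2, PLRG1 and SNRNP40 were the 4 that were lower. Without the first combination library the calls of PLRG1 and SNRNP40 were lost, and fewer of all tested genes were called lower.

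The interaction asks whether the effect of the combination differs from the sum of the single effects on the log2 scale. None of the 53 was called (edgeR, adjusted p under 0.05), beside 0% of all tested genes. At an unadjusted p under 0.05 there were 8 of 53, and 1584 of 18661 (8.49%) over all genes. DESeq2 also called 0 of the 53, with 2 higher and 27 lower among all genes. The smallest p-values were those of LSM3 (0.36 ± 0.10 SE, edgeR adjusted p = 0.348), SNRPG (0.27 ± 0.08, edgeR adjusted p = 0.415) and SNRPE (0.21 ± 0.07, edgeR adjusted p = 0.438). For LSM3 the value sets the fall with SPHINX31 alone (log2 fold change -0.41) against the effect of SPHINX31 in the presence of indisulam. There the combination level (75.3 and 74.1 CPM) was close to that of indisulam alone (77.4 and 77.0). The adjusted p of LSM3 was 0.0429 where all genes with a count were tested. The 95% intervals of the interaction had a median half-width of 0.23 over the 53.

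Around the 53 genes, other proteins of splicing and snRNP assembly were counted from lists of gene names. Over all tested genes, 20.1% rose with indisulam and 23.5% fell. Of 10 SF3A and SF3B subunits, which anchor U2 to the branch site, 7 rose with indisulam and none fell, and SF3B1 had the largest increase (log2 fold change 0.31 ± 0.05 SE, edgeR adjusted p = 0.000493). Among 34 further spliceosome proteins, 21 rose and 1 fell. The U1-associated LUC7L had the largest increase (1.09 ± 0.06, edgeR adjusted p = 4.35e-08) and the gene that fell was PRPF40B, also a U1-associated protein (-0.80 ± 0.08, edgeR adjusted p = 5.54e-06). Of 10 spliceosomal helicases, 2 rose and 1 fell (20% and 10%), which is not above the shares over all tested genes. DHX15, which takes spent spliceosomes apart, had a log2 fold change of 0.68 ± 0.06 and DHX35 one of -0.51 ± 0.08 (SE).

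The assembly and import list covers the SMN complex, the methylosome and the cap-binding and import factors. Of its 20 genes, 9 rose with indisulam and 5 fell (45% and 25%), beside 20.1% and 23.5% of all tested genes. GEMIN6 of the SMN complex had the largest increase (0.40 ± 0.06 SE, edgeR adjusted p = 0.000198). NCBP1, the large subunit of the nuclear cap-binding complex, had the largest decrease (-0.72 ± 0.06, edgeR adjusted p = 5.06e-07). Of 8 Sm and LSm relatives outside the 53, 2 rose (25%, against 20.1% of all tested genes) and none fell. LSM11 of the U7 particle had the largest increase (0.39 ± 0.09 SE, edgeR adjusted p = 0.00246). With SPHINX31 the calls in these lists were 0 higher and 2 lower of 20 in assembly, 0 and 1 of 10 for SF3A and SF3B, and 0 and 0 for the other 3 lists. Over all tested genes, 4.94% were higher and 3.67% lower with SPHINX31.

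Per kilobase of the canonical transcript, the untreated levels of the 53 ran from 3.79 CPM per kb for ISY1 to 379 for SNRPD2, and 4 Sm genes were the highest (SNRPD2, SNRPF, SNRPB and SNRPG). Canonical transcripts had 3 to 45 exons (median 10, against 9 over tested protein-coding genes). An annotated transcript subject to nonsense-mediated decay was present for 25 of the 53, and 46.2% of all tested protein-coding genes have one. A transcript with a retained intron was annotated for 32, against 59.0% of all. The correlation of the indisulam response with the number of retained-intron transcripts was -0.23 over the 53 and -0.05 over all. Gene counts do not separate such transcripts from the productive ones, so an increase in counts need not be an increase in mRNA that can be translated.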

How the data were processed

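Polyadenylated RNA was sequenced from stranded libraries of A549 cells, 2 technical replicates in each of 4 groups (untreated, indisulam, SPHINX31, combination). The authors deposited 1 table per library with raw counts of reads per gene. Per the labels, the submitters' processing notes name SeqPurge, HISAT2 2.2.1 and HTSeq with GRCh38. The annotation and the strand setting of the counting are not given in the sources used here, so reads of genes that overlap on opposite strands cannot be told apart with certainty. Rows that name no gene (no feature, ambiguous, not unique) were left out of library sizes. The gene rows held between 83.0% and 86.0% of the reads recorded, and rows without a gene the rest.

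Counts were tested with edgeR 4.0.16 (R 4.3.3): filterByExpr, TMM scaling, 1 quasi-likelihood fit over all 8 libraries with a term per group, and Benjamini-Hochberg adjustment over 18661 genes (threshold 0.05). The fit had 4 residual degrees of freedom and a common biological coefficient of variation of 0.0491. CPM values are scaled by TMM, and fold changes are given as log2 with SE = |log2 fold change| / square root of F. The 95% intervals use this SE with the 4 residual degrees of freedom. The tests themselves use more, so the intervals are wider than the p-values imply. Depth was 51727369 to 63186989 counts per library. Replicates differed by more than sampling noise (chi-square per degree of freedom 6.02 to 9.69), so none was a copy. Gene positions, exons and transcripts came from GENCODE on GRCh38, and promoters from RefSeq (GRCh38.p14).

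The 53 genes were picked by protein function and not by their values, but they, the other gene lists and the tests were chosen with earlier results of these data known. Named genes are, for each comparison against untreated cells and for combination against indisulam, up to 5 called members per direction with the largest changes; the highest and lowest member of each role with indisulam; the 3 members with the smallest interaction p; RBM39 and SRPK1; and the called gene with the largest change in each direction of every other list. Others were named after their values were seen, as neighbours, as partners or because a count was 5 or fewer. Alternatives were RLE size factors, library totals alone, DESeq2 1.42.0, a looser and a stricter count filter, only the groups compared, a replicate block, leaving out each library, and a minimum size of 0.5 for the log2 fold change in either direction. Added after seeing the data were a GC correction over 50 bins, alone and with the block, and a block with the indisulam numbers exchanged.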

Additional observations from a re-analysis of the deposited data

Results flagged for a closer look

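The share of reads outside annotated features was higher in the libraries with indisulam than in any library without it. It was 5.48% and 4.49% with indisulam and 5.87% and 4.87% with the combination, against 3.94% and 4.34% in untreated cells and 3.67% and 3.93% with SPHINX31. These reads enter none of the comparisons of the core spliceosome genes. Their part in the differences reported for those genes was not tested.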

How the results depend on the processing

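Member counts are given as higher and lower. A minimum absolute log2 fold change of 0.5 left 6 and 1 with indisulam, 0 and 0 with SPHINX31, 8 and 2 with the combination, 1 and 0 for combination against indisulam, and 9 and 1 for combination against SPHINX31, by its construction. Genes higher with SPHINX31 numbered 3 with library totals alone, 2 where each library had to hold 10 counts, and 3 with either GC correction. Among all tested genes they numbered 1341, 954, 1385 and, for the GC correction with the block, 1247, against 921 in the main fit. For combination against indisulam, 7 were higher with no filter beyond 1 count, and 3 and 2 were lower with the GC correction without and with the block. In the same fits 820 of all tested genes were higher, and 1428 and 1289 were lower, against 592 and 807 in the main fit. With no filter beyond 1 count, 1 interaction (LSM3) was called, beside 32 higher and 62 lower among all 34831 genes tested there. The cause was not tested. Leaving out each library gave 0 to 1 higher and 1 to 5 lower with SPHINX31, 21 to 36 higher with the combination, 1 to 5 higher and 0 to 1 lower for combination against indisulam, and 2 to 4 lower for combination against SPHINX31.

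LSM4 with indisulam, never called, turned positive with RLE (0.00571), library totals (0.00205), DESeq2 (0.00557) and GC correction (0.0526, with the block 0.0521), and ran from -0.0716 to 0.0665 as libraries were left out. SRPK1 with SPHINX31 ran from -0.123 to 0.0279 in the same way. Same-numbered libraries did not deviate together in every pair (correlations -0.61 to 0.48 over 8227 genes), so the numbers are not shown to pair the libraries. With the replicate block, 31 rose and 3 fell with indisulam, 1 and 5 with SPHINX31, 33 and 4 with the combination, 3 and 1 for combination against indisulam, and 35 and 4 against SPHINX31. The block with indisulam numbers exchanged gave 35 and 4 with indisulam, 3 and 8 with SPHINX31, 36 and 4 with the combination, 7 and 2 for combination against indisulam, and 38 and 4 against SPHINX31. All tested genes moved too, from 921 and 685 to 1415 and 1215 with SPHINX31. For combination against indisulam they moved from 592 and 807 to 949 and 1303. This block was added after the data were seen. It joins indisulam libraries to untreated and SPHINX31 libraries that deviated alike, so the added calls do not show a true pairing. With library totals alone, 5331 of all tested genes rose and 4304 fell with the combination, against 4434 and 4903 with TMM. The same split was 942 and 498 against 592 and 807 for combination against indisulam, and 1341 and 515 against 921 and 685 for SPHINX31, while members with the combination were 39 and 3. With 2 technical replicates a group, small changes in single genes depend on which library is kept.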

Other observations

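Of the 53 core spliceosome genes, 9 have exons that overlap another gene holding at least 10% of their own counts, and besides those described above the largest movement was in C2orf68, opposite USP39, with a log2 fold change of -0.93 with indisulam (edgeR adjusted p = 1.00e-07). USP39 itself, a protein of the tri-snRNP, was 75.4 and 77.1 CPM in untreated cells and 79.9 and 81.4 with indisulam. ACTMAP, opposite SNRPA, had a log2 fold change of 0.29 with indisulam (edgeR adjusted p = 0.00180) and 0.62 with the combination, beside 0.16 and 0.17 for SNRPA. FRMD4A, opposite PRPF18, had 0.34 (edgeR adjusted p = 0.0136) beside 0.31 for PRPF18. Processed copies were near silent, since the 76 annotated pseudogenes named after 18 of these genes had median counts of at most 49 per library.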
